A study of Canis lupus familiaris with 33 samples.

Results

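The colon list of methylated regions was compared with the lists of 10 other tissues of adult beagles, on the 38 autosomes. Methylated DNA had been captured from sheared genomic DNA with beads that carry a methyl-CpG-binding domain and then sequenced (MBD-seq), and each tissue had 1 deposited list of peaks. Merging the peaks of all 11 lists gave 450785 union regions, and colon had a peak in 217862 of them (48.3%), the fewest of the 11 tissues. A tissue counted as present where at least 1 base of its peaks fell in the region. Of these regions, 1256 (0.279%) had a peak in colon and in no other tissue (colon-only), 3149 (0.699%) had a peak in the other 10 tissues and none in colon (colon-absent), and 121527 had a peak in all 11 tissues (shared).

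The colon list came from 2 MBD libraries, titled 679 and jj82 and both labelled female, and from 1 input library titled jj8. The animal jj8 is labelled female in its input libraries and male in its MBD libraries. The other tissues were stomach, the only one with the same pair of MBD animals as colon, and pancreas, liver, spleen, kidney, lung, mammary gland, ovary, cerebrum and cerebellum. Each had 2 MBD libraries, 1 of them from animal 679, and 1 input library. The protocol names 3 healthy dogs (1 male and 2 female), killed with alfaxalone and KCl, while the titles carry 4 animal identifiers (679, 244, jj8 and jj82). There was no treatment group. Since each tissue had 1 list, no spread between replicates could be computed and no test was made. A rank of 1 list among 11 could not reach an exact permutation p below 0.0909. The number of reads behind each list is unknown.

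In mammals most CpG sites are methylated, while CpG islands and active promoters and enhancers tend to be unmethylated, and each cell type keeps its own pattern at such elements. The lining of the colon is an epithelium renewed from stem cells in crypts, and the organ wall also holds smooth muscle, enteric nerves, vessels and immune cells. A peak therefore averages over many cell types, and methylation in fewer cells cannot be told apart from weaker methylation in every cell. The label colon was not checked against marker genes, because gene positions on the build of these lists were not used here. For the same reason, regions are given by position alone.

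Colon held 251352 autosomal peaks, the shortest list of the 11, and they covered 148 Mb. Only pancreas (140 Mb) and stomach (146 Mb) covered less, while ovary covered 210 Mb. The fold of a peak is the signal value that the authors deposited, read as an enrichment. Its median over autosomal peaks was 8.17 in colon, second to stomach at 8.80, and it was lower in the other 9 tissues, down to 6.19 in lung. Folds are therefore given below relative to the median of their own list, so that a relative fold of 1 is a typical peak of that tissue. The colon list thus held few peaks with high folds.

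What colon shared was mostly shared by nearly everyone. Of the regions with a colon peak, 55.8% were present in all 11 tissues and 81.4% in at least 9, the highest shares of the 11 tissues together with those of pancreas, 55.7% and 81.4%. In ovary and cerebellum the share in at least 9 was 53.5% and 53.1%. The share in all 11 divides the same 121527 regions by the number of regions of each tissue. Its order is therefore the reverse of that of the region counts, which are lowest in colon, and it adds nothing to them. Among regions with a peak in exactly 6 tissues, colon was one of the 6 in 32.9%, the lowest share of all tissues, where equal shares would give 54.5%. Colon had the lowest share in regions of 4, 5, 6, 7 and 8 tissues. In regions of 2 and 3 tissues it was second to pancreas, with 3.41% and 6.77%. At the other end, colon had a peak in 92.1% of the regions with peaks in 10 tissues, rank 5 counted from the lowest. Against equal shares, colon peaks were scarcest in regions of few tissues, with 1.53% against 9.09% in regions of 1 tissue, while its rank was lowest at intermediate sharing.

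**Figure D1:**
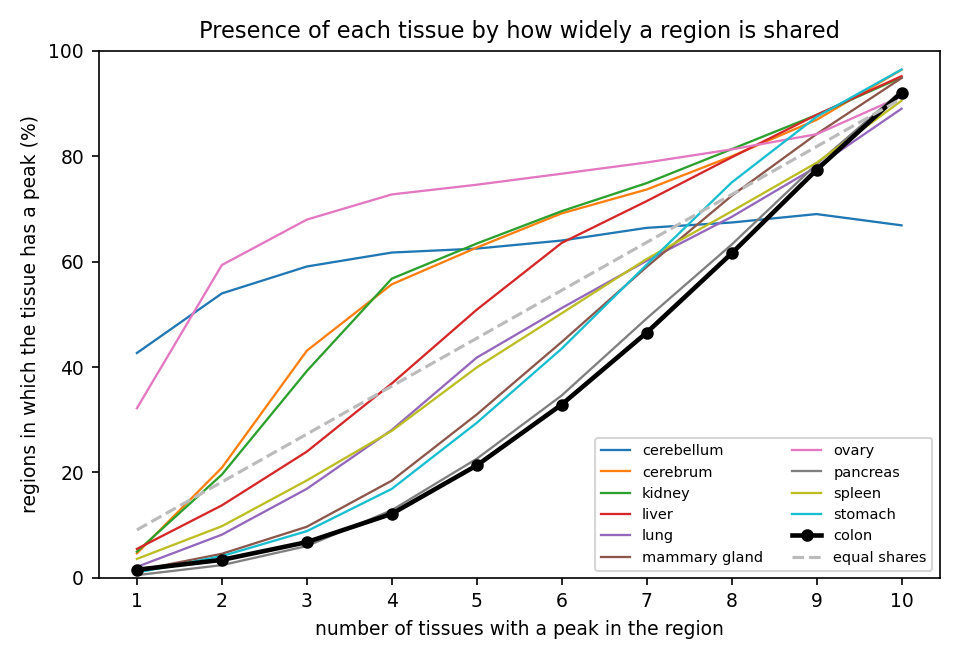
Percent of regions in which each tissue has a peak (y axis) against the number of tissues with a peak in the region (x axis, 1 to 10), 1 line per tissue, colon in black and equal shares dashed. The colon line runs lowest from 4 to 8 tissues, at 32.9% for regions of 6 tissues, and reaches 92.1% for regions of 10 tissues.

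Colon-only regions were few, and weak as regions of 1 tissue were in all 11 tissues. They made up 0.279% of all union regions (95% Wilson interval 0.264% to 0.294%) and 1.53% of the 82088 regions found in 1 tissue. By number colon ranked 8 of 11, below lung (1702) and above mammary gland (1130), stomach (816) and pancreas (418). With every list cut to the number of peaks of colon, so that only the other lists lost peaks, there were 2120 (rank 9). With only the 50% of each list of highest fold there were 745 (rank 10). Their median width was 273 bases, the widest median among the regions found in 1 tissue only for each of the 11 tissues, which ranged down to 197 bases in pancreas. Shared regions had a median width of 798 bases. The relative fold of colon in colon-only regions had a median of 0.589 and a range of 0.288 to 1.96, and 118 of the 1256 reached the typical peak of the list. The same median ran from 0.520 (stomach) to 0.670 (ovary) in the regions found in 1 tissue only. The median of the colon-only regions lay at percentile 13.5 of the folds of the colon list. Their median −log10 p-value was 10.2 against 26.3 for the whole list.

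The strongest colon-only region lay on chromosome 1 at 99773063 to 99773612 (CanFam3.1, as are all positions), with a relative fold of 1.96. The next ones reached 1.79 on chromosome 36 at 19993731 to 19994454, 1.70 on chromosome 9 at 24847221 to 24848174 and 1.65 on chromosome 35 at 24429256 to 24429925. They were 550, 724, 954 and 670 bases wide, against the median of 273. Regions on chromosomes 12 (9385713 to 9386154), 16 (18655578 to 18656212) and 9 (45775842 to 45776376) had relative folds of 1.60, 1.59 and 1.58. The last 3 of the 10 strongest were on chromosome 22 (8257083 to 8257727, 1.55), chromosome 24 (27141278 to 27142837, 1.53) and chromosome 1 (29919895 to 29921066, 1.53). All 10 were wider than the typical colon-only region. By the definition of the class, the other 10 lists had no peak in them. The widest colon-only region, 1653 bases on chromosome 14 at 40417876 to 40419528, had a relative fold of 1.24. Only 17 colon-only regions (1.35%) were 1 kb or wider.

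Part of the colon-only regions lay close together. With a cluster defined as at least 3 regions separated by gaps of at most 50 kb, 31 clusters held 115 of the 1256 regions (9.16%). The corresponding share was 4.51% in mammary gland, 4.23% in lung, 2.33% in stomach and 0.957% in pancreas, the tissues with the most similar numbers of regions found in 1 tissue. It was 8.13% in cerebrum, 8.78% in kidney, 9.33% in spleen, 24.8% in liver, 54.2% in ovary and 70.1% in cerebellum, which all had more such regions than colon, and a larger number of regions brings more of them within 50 kb by itself. The share of colon thus ranked 5 of 11, and its difference from the other tissues was not tested.

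The largest cluster had 8 colon-only regions in 54.3 kb of chromosome 35, from 25737092 to 25791368, with relative folds of 0.40 to 0.93. This stretch held 10 union regions, of which colon had 8, cerebellum and spleen 2 each, and no other tissue more than 1. The second cluster had 7 colon-only regions in 120 kb of chromosome 36, from 19874290 to 19994454, with relative folds of 0.37 to 1.79. Here colon had a peak in 31 of 36 union regions, followed by mammary gland with 21, kidney with 17 and stomach with 16, and cerebellum had 2. In this stretch the median of the other 10 tissues was 11.5 regions, and no region was shared by all 11. The third cluster had 6 colon-only regions in 30.6 kb of chromosome 9, from 24955839 to 24986443, and colon had a peak in 7 of 9 union regions there against 2 in kidney, 2 in liver and 0 in the other 8 tissues.

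Clusters on chromosomes 38 and 23 had 5 colon-only regions each. That on chromosome 38 (12392709 to 12443210) held 13 union regions, 8 of them present in colon and 7 in cerebellum. That on chromosome 23 (42493298 to 42548660) held 20, with 12 present in colon, 9 in cerebrum, 6 in stomach, 2 in cerebellum, 1 in spleen and 0 in the other 6 tissues. None of the 5 largest clusters contained a region with a peak in all 11 tissues.

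**Figure D2:**
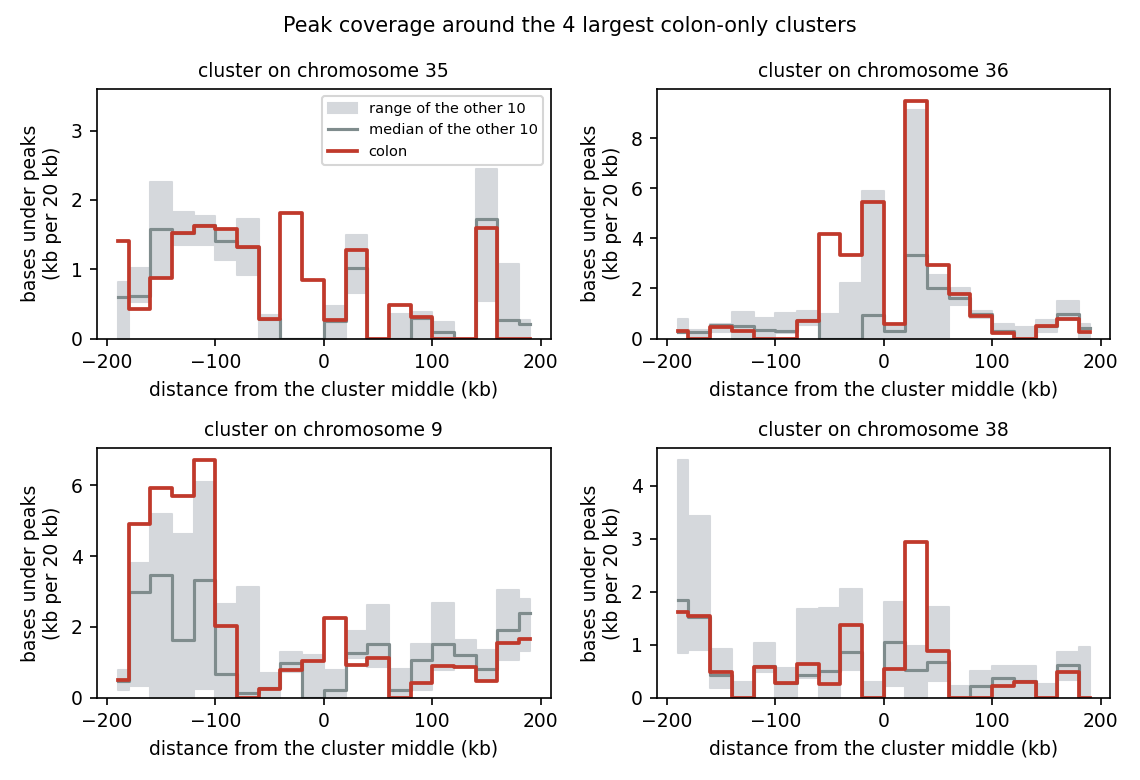
Kilobases under peaks per 20 kb (y axis) by distance from the middle of the 4 largest colon-only clusters (x axis, kb), with colon in red, the median of the other 10 tissues in grey and their range shaded. Colon rises above the range of the others within 60 kb of the middle of each cluster. Farther out it also does so on chromosome 9, where the colon-only region from 24847221 lies, and in parts of chromosome 35.

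Coverage was also summed over windows, where peaks of colon-only regions count toward that of colon. Bases under peaks were scaled to the same total in every list and counted in 2198 windows of 1 Mb with at least 20 kb of union regions. The window from 42 to 43 Mb of chromosome 23 had the highest ratio of colon to the other tissues, with 13.6 kb in colon against a median of 6.72 kb, a log2 ratio of 1.02. Cerebrum, at 16.9 kb, and ovary, at 13.9 kb, were above colon there. The window from 40 to 41 Mb of chromosome 14 came next, with 63.5 kb in colon against a median of 42.4 kb and a range of 34.0 kb (pancreas) to 60.8 kb (mammary gland), so that colon was above all other tissues (log2 ratio 0.58). The following windows lay on chromosome 24 (12 to 13 Mb, log2 ratio 0.44), chromosome 3 (66 to 67 Mb, 0.41) and chromosome 25 (24 to 25 Mb, 0.41). In these 3, colon was exceeded by 1, 1 and 3 of the other tissues. Of the 5 largest colon-only clusters, only that on chromosome 23 lay in one of these 5 windows. The windows of the clusters on chromosomes 36, 35 and 9 ranked 9, 10 and 11 of 2198.

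Windows of 100 kb gave the highest values partly at other places. Of the 12802 such windows with at least 5 kb of union regions, the highest ratio was in the one from 29900001 to 30000000 of chromosome 1. Colon had 7.17 kb there, against a median of 0.73 kb and a highest value of 4.23 kb (cerebellum) in the others, a log2 ratio of 3.30 that was 4.60 with only the 50% of each list of highest fold. On chromosome 23, from 42500001 to 42600000, colon had 7.32 kb, cerebrum 5.41 kb, stomach 3.21 kb and the median tissue 0.89 kb (log2 ratio 3.04). On chromosome 24, from 1000001 to 1100000, colon had 7.48 kb and the other 10 tissues 1.09 to 2.64 kb, with no overlap (log2 ratio 2.35). On chromosome 32, from 30700001 to 30800000, mammary gland (5.94 kb) was above colon (4.97 kb), and the median of the other 10 was 1.05 kb (log2 ratio 2.24, and 1.57 with the 50% of highest fold). Within the chromosome 14 window, the 100 kb from 40400001 had 9.52 kb in colon against a median of 2.48 kb and a highest value of 6.30 kb (ovary), a log2 ratio of 1.94. In the neighbouring 100 kb from 40300001, mammary gland had 19.9 kb and ovary 13.9 kb, above the 13.8 kb of colon.

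By count, colon-only regions were most numerous in the 1-Mb windows that start at 25 Mb of chromosome 35 (14 regions), 24 Mb of chromosome 9 (11) and 24 Mb of chromosome 35 (8). The windows at 99 Mb of chromosome 1 and 19 Mb of chromosome 36 had 7 each. Colon covered more than any other tissue in 4 of these 5. In the window of chromosome 35 at 25 Mb colon had 48.0 kb and the others 36.6 to 40.6 kb, and in that of chromosome 9 colon had 90.4 kb and the others 59.8 to 84.1 kb. In the window of chromosome 1, colon (72.6 kb) lay inside the range of the others (66.4 to 78.7 kb), so that its 7 colon-only regions came with ordinary coverage.

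In 1-Mb windows the opposite pattern was more common. Colon had the lowest coverage of all 11 tissues in 366 of the 2198 windows of 1 Mb (16.7%) and the highest in 36 (1.64%). Only cerebellum was the lowest more often (19.4%), and liver (13.9%), lung (13.9%) and pancreas (13.7%) came next. In 100-kb windows colon was the lowest in 9.26%, near an equal share of 9.09% and below cerebellum, ovary and pancreas, and the highest in 4.19%. The ratio of colon rose with the density of methylated regions. In the 440 windows with the least union sequence, up to 37.2 kb per Mb, the median log2 ratio of colon was −0.27, the lowest of the 11 tissues, and over the next groups of windows it was −0.14, −0.08 and −0.03. In the densest windows it was 0.04. Liver, at −0.24, and lung, at −0.19, were also low in the sparsest windows, while cerebellum was at 0.62 and ovary at 0.46. In the sparsest 100-kb windows colon, at −0.15, was not the lowest, and pancreas (−0.16), lung (−0.15) and liver (−0.14) were at nearly the same level. The lowest 1-Mb value of colon was on chromosome 3 from 79 to 80 Mb, with 4.26 kb against 5.73 kb (spleen) to 16.1 kb (cerebellum) in the others, a log2 ratio of −0.90. Windows on chromosome 29 (26 to 27 Mb, −0.81) and chromosome 30 (19 to 20 Mb, −0.78) followed, and in each of these 3 colon was below all 10 other tissues. With only the 50% of each list of highest fold, the values on chromosomes 3 and 29 were −1.98 and −1.58. The lowest 100-kb windows held little colon sequence and were not stable. Ratios of −2.54, −2.51 and −2.46 were found on chromosome 29 from 18600001, chromosome 19 from 46900001 and chromosome 20 from 17800001, with colon below all 10 others at 0.27, 0.26 and 0.31 kb. With the 50% of highest fold the last of these was 0.11, above the median of the others, and the first 2 gave no ratio. In 5 further 100-kb windows, on chromosomes 5, 6, 13, 19 and 36, colon had no peak, and 1 or more of the other tissues also had none.

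Colon-absent regions outnumbered colon-only regions 3149 to 1256. They were 0.699% of all union regions (95% Wilson interval 0.675% to 0.723%) and 7.93% of the 39706 regions with peaks in 10 tissues, where each tissue would have 9.09% if lacking peaks were shared evenly. By number colon ranked 5 of 11, after cerebellum (13152), lung (4367), spleen (3765) and ovary (3435). With every list cut to the number of peaks of colon there were 1366 (rank 9), fewer than the 2120 colon-only regions. In that setting only the other lists lost peaks. With the 50% of each list of highest fold there were 907 (rank 9). Their median width was 355 bases, close to the 347 of all union regions, and 104 (3.30%) were 1 kb or wider. They lay a median of 3.27 kb from the nearest colon peak, with 25% within 1.02 kb and 5% beyond 33.5 kb. The same distance was not computed for other regions.

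**Figure D3:**
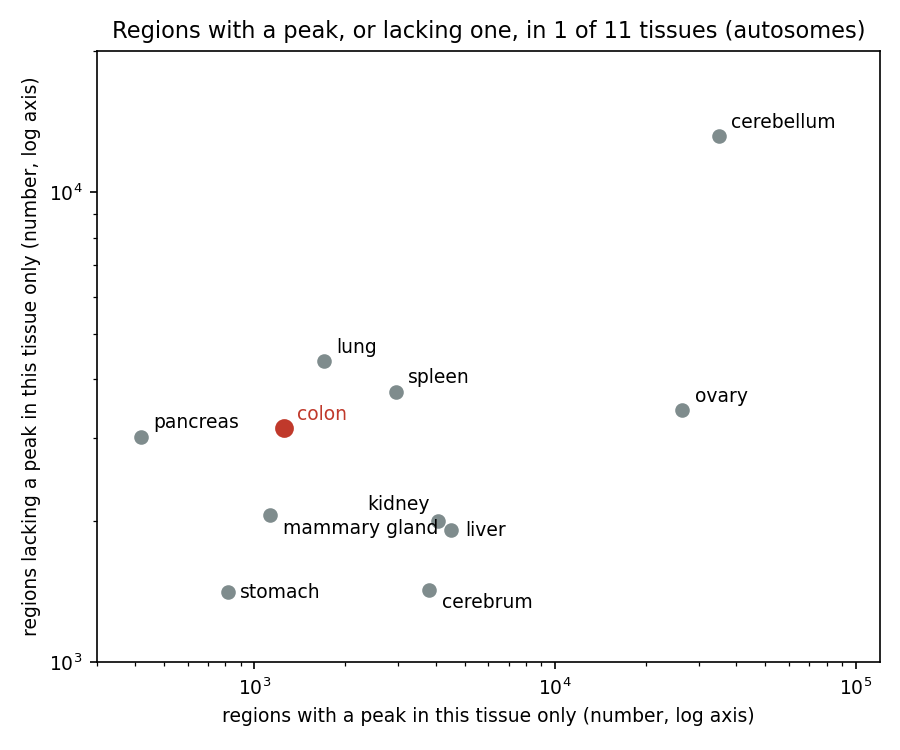
Number of regions lacking a peak in 1 tissue alone (y axis, log scale) against the number with a peak in that tissue alone (x axis, log scale), 1 point per tissue with colon in red. Colon, at 1256 and 3149, has more regions lacking a peak than regions of its own, as do pancreas, lung, mammary gland, spleen and stomach.

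In the other tissues the colon-absent regions were moderately weak. The median over the other 10 tissues had a median relative fold of 0.881 and reached 1 in 641 of the 3149 regions, whereas in shared regions the corresponding median was 1.46. By tissue, the median relative fold in these regions was highest in cerebellum (1.12), ovary (1.01) and cerebrum (1.01) and lowest in pancreas (0.758) and stomach (0.758). In 4 of the regions, every one of the other 10 tissues was at or above the typical peak of its list.

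The colon-absent region with the highest median in the other tissues lay on chromosome 3 at 60070572 to 60071080, 509 bases wide. The 10 tissues there ranged from 1.38 (ovary) to 2.67 (kidney) with a median of 1.75, so no tissue other than colon was low. On chromosome 14 at 53630264 to 53630635, the others ranged from 0.988 (liver) to 1.79 (stomach) with a median of 1.57. On chromosome 4 at 29237429 to 29238601, stomach was low at 0.510 and kidney high at 1.96, with a median of 1.51. A region on chromosome 22 (23194230 to 23194582) had a median of 1.49, and one on chromosome 14 (40335853 to 40337062), 1210 bases wide, had a median of 1.44. In the latter, kidney was lowest at 0.797 and stomach highest at 2.24.

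That region of chromosome 14 lay in the same 1-Mb window as the widest colon-only region, the window in which colon had the highest coverage of all tissues. The window held 4 colon-only and 2 colon-absent regions, so a gain of coverage and a missing peak occurred side by side. The other 5 of the 10 strongest colon-absent regions, on chromosomes 5, 18, 15, 21 and 13, had medians of 1.37 to 1.43. In each of them at least 1 other tissue was low, between 0.462 (pancreas, chromosome 15) and 0.610 (liver, chromosome 21). The widest colon-absent region measured 2472 bases on chromosome 34 at 35186813 to 35189284, with 0.620 (stomach) to 1.59 (cerebellum) in the others and a median of 0.842.

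Colon-absent regions seldom lay together. Clusters held 95 of them (3.02%), in 29 groups with at most 4 regions each. Among the groups of 4, the one with the most bases was in 13.9 kb of chromosome 9, from 4105876 to 4119747. Colon had a peak there in 3 of 10 union regions and the other tissues in 7 to 10. On chromosome 26, from 35925639 to 36045581, colon had a peak in 17 of 44 regions and the others in 19 (stomach) to 42 (ovary). In groups on chromosomes 19, 18 and 20 colon had 13 of 37, 10 of 26 and 17 of 43 regions, each the lowest number of the 11 tissues. Each of these 5 groups was chosen for 4 regions that every other tissue has and colon lacks. The low rank of colon was therefore set in part by the selection. Beyond those 4, colon lacked peaks in these 5 stretches also in regions that some other tissue lacked. The 1-Mb window with the most colon-absent regions was on chromosome 1 from 104 Mb, with 11 of them and with 39.7 kb in colon against 43.1 to 53.3 kb in the others.

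By chromosome, colon-only regions were most frequent on chromosome 35, with 39 among 5534 union regions or 0.705% (95% Wilson interval 0.516% to 0.962%), 2.53 times the autosomal share. For the regions found in 1 of the other 10 tissues, the same ratio on chromosome 35 ran from 0.615 to 1.95 with a median of 0.999. These values were below that of colon, but chromosome 35 was chosen because the colon share was highest there. The highest chromosome of each other tissue was not computed, so 2.53 cannot be called particular to colon. Of the 39 regions, 14 and 8 lay in the 2 neighbouring windows from 24 to 26 Mb named above, and the share of the chromosome rests largely on that stretch. The colon-only regions of chromosome 35 also had the widest median of any chromosome, 395 bases. Chromosome 20 followed with 65 regions or 0.483% (0.379% to 0.615%), 1.73 times the autosomal share, within the 0.738 to 1.84 of the other tissues. The lowest share was 0.120% on chromosome 33, with 7 regions of median width 208 bases. Colon-absent regions were most frequent on chromosome 32 (1.09%, 0.827% to 1.43%), chromosome 22 (1.06%, 0.876% to 1.29%) and chromosome 27 (0.990%, 0.793% to 1.24%), and least on chromosome 16 (0.545%). The median width of colon-absent regions by chromosome ran from 334.5 bases (chromosome 17) to 407 (chromosome 38).

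**Figure D4:**
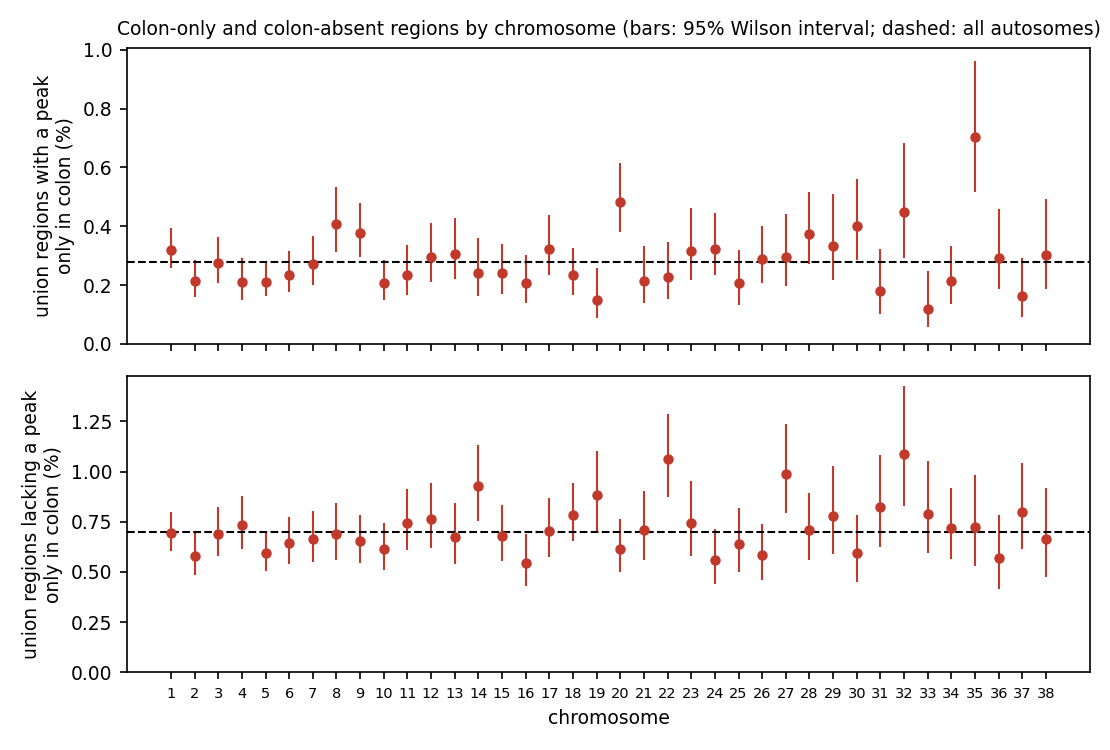
Percent of the union regions of each autosome (x axis) that are colon-only (upper panel) or colon-absent (lower panel), with 95% Wilson intervals as bars and the autosomal shares of 0.279% and 0.699% dashed. Chromosome 35, at 0.705%, stands highest among colon-only shares, and chromosomes 32, 22 and 27 among colon-absent shares.

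Methylated regions were crowded at the distal ends of the chromosomes. The last 10% of the chromosomes, measured to the last base of any peak, held 14.7% of all union regions and 20.0% of shared regions. It held 12.9% of colon-only regions (95% Wilson interval 11.2% to 14.9%), an interval that includes the share of all regions. It held 11.5% of colon-absent regions (10.4% to 12.7%), below the share of all regions. With only the 50% of each list of highest fold, however, the last 10% held 16.9% of colon-absent regions against 16.4% of all regions, so the low share did not hold there. For colon-only regions that setting gave 12.1%. The first 10% held 11.6% of all regions, 11.1% of colon-only and 11.4% of colon-absent regions. Within shared regions the median log2 ratio of colon was 0.05 in the last 10% of the chromosomes, 0.01 in the first 10%, and between −0.03 and −0.01 in the 8 parts between.

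In shared regions, the highest fold of each list in the region, relative to the list median, was set against the median of the other 10 tissues. The log2 ratio of colon had a median of 0.00 and an SD over regions of 0.40, the third smallest of the 11 tissues after stomach (0.395) and kidney (0.398), and 98% of the regions lay between −1.09 and 0.77. Colon was at most 0.5 times the median of the others in 1950 regions (1.60% of 121527) and at least 2 times it in 187 (0.154%). Large deviations of colon were thus mostly downward, by 10.4 to 1. This imbalance was larger only in stomach (27.5 to 1) and pancreas (19.8 to 1), and in mammary gland it was below 1 (0.464). With the other lists reduced to the number of peaks of colon, 765 regions were lower and 329 higher. Among the 6 lists whose shortest peak was under 200 bases, 2593 were lower and 877 higher. The number of higher regions also rose to 311 without lung, 308 without mammary gland and 300 without spleen. A further 1179 regions were between 0.9 and 1 below the others on the log2 scale, just outside the limit, against 780 between 1 and 1.1 just inside.

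Colon was below the lowest of the other 10 tissues in 8.04% of shared regions and above the highest in 4.02%, where equal chances for 11 tissues would give 9.09%. Among the 1950 lower regions, colon was below all others in 1688 (86.6%), and among the 187 higher regions above all others in 115 (61.5%), both set in part by the limit itself. In the lower regions the lowest of the other tissues was most often stomach (324 regions, 16.6%), followed by pancreas (271, 13.9%), mammary gland and spleen (237 each), and least often cerebrum (88). Over all shared regions, with colon counted too, stomach was the lowest tissue in 7.23% and pancreas in 10.0%. Mammary gland was the lowest in 7.15%, spleen in 7.87% and cerebrum in 7.74%, and ovary most often (15.7%). In the higher regions the highest of the others was most often mammary gland (53 regions, 28.3%), spleen (34, 18.2%) or lung (29, 15.5%). Over all shared regions, with colon counted too, mammary gland was the highest tissue in 16.7%, spleen in 7.76% and lung in 13.2%. In the higher regions the median log2 distance of mammary gland, spleen and lung from the reference was 0.36, 0.41 and 0.43, against −0.25 in cerebellum.

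The region with the lowest ratio lay on chromosome 31 at 36014616 to 36015647. Colon had a relative fold of 0.305 and the others 0.630 (stomach) to 2.13 (liver) with a median of 1.48, so colon was 4.84-fold below the median. It was part of a group of 3 lower regions in 54.0 kb of chromosome 31 (35961604 to 36015647). On chromosome 5 at 62743765 to 62744983, colon was at 0.326 and the others at 0.617 (mammary gland) to 2.33 (pancreas), 4.28-fold lower than their median. Its log2 ratio of −2.10 was −1.21 when peaks up to 200 bases apart were merged. On chromosomes 28 (34017342 to 34018159) and 18 (28320904 to 28321848) colon was 3.94-fold and 3.92-fold lower, with no overlap with the other tissues. In the 10 regions with the lowest ratios colon was below all other tissues. Its peaks covered 28.3% to 69.8% of the region, and their folds lay between 1.99 and 3.49, near the weak end of the list. Such regions were therefore close to being colon-absent.

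Groups of lower regions were small. The largest had 4 in 74.8 kb of chromosome 2 (79799338 to 79874117), with log2 ratios of −1.32 to −1.05, where 24 of the 32 union regions were shared by all tissues. Groups of 3 lay on chromosome 18 (44402559 to 44452779) and in 2 stretches of chromosome 9 (3194601 to 3251868 and 3436828 to 3481914). In all, 70 of the 1950 lower regions (3.59%) were in such groups, and 0 of the 187 higher ones.

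The highest ratio was found on chromosome 33 at 635487 to 635841. Colon had a relative fold of 10.7, pancreas 7.30, kidney 4.62 and lung 4.09, while ovary was at 0.415, and the ratio to the median of 2.65 was 4.04 (log2 ratio 2.01, and 1.13 with the −log10 p-value in place of the fold). The tissues there spread widely. On chromosome 16 at 10545037 to 10547331, colon (11.2) was close to mammary gland (10.4), and the other 9 lay between 2.12 (ovary) and 5.37 (spleen). The log2 ratio there was 1.51, and 0.52 with the −log10 p-value, which is below the limit of 1. On chromosome 5 at 65948688 to 65950002, colon had 2.92 and the others 0.694 (liver) to 1.89 (stomach), with a median of 0.992. On chromosome 3 at 53040768 to 53041587, colon had 2.81 and the others 0.629 (cerebellum) to 2.05 (spleen). In the next ones, on chromosomes 30 and 10, colon was at 2.53 and 3.11 and the highest other tissue at 2.14 (stomach) and 2.70 (mammary gland). In 2 of the 10 regions with the highest ratios, both on chromosome 18, another tissue was above colon (cerebellum at 48944854 to 48945327 and spleen at 1253287 to 1253763).

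The ratio of colon changed with the width of the shared region. In the narrowest 10% of shared regions, up to 352 bases, the median log2 ratio was −0.21, the lowest of the 11 tissues. It was −0.02 for widths of 649 to 798 bases and 0.17 in the widest 10%, from 2493 bases. The rise of 0.38 from the narrowest to the widest was exceeded by mammary gland and lung (0.57 each), whereas cerebellum and ovary fell by 0.63 and 0.55. Lower regions made up 2.40% of the narrowest 10% and 0.189% of the widest. Their median width was 575 bases and that of the 187 higher regions 874 bases. Shared regions of up to 406 bases thus had a lower median ratio in colon than in any other tissue. From 407 to 518 bases pancreas (−0.10), mammary gland (−0.07) and stomach (−0.06) were below colon (−0.05).

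**Figure D5:**
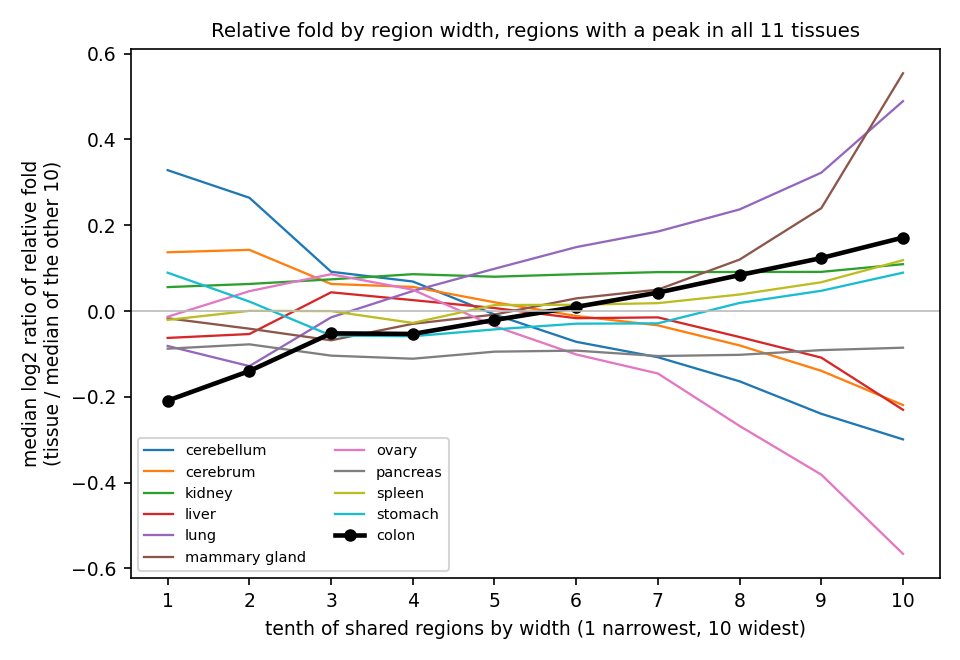
Median log2 ratio of the relative fold of each tissue to the median of the other 10 (y axis) in 10 width groups of the 121527 shared regions (x axis, 1 narrowest), 1 line per tissue with colon in black. Colon goes from −0.21 to 0.17, mammary gland and lung rise more steeply, and cerebellum and ovary fall.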

How the data were processed

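The series holds 33 libraries of 11 beagle tissues, 22 MBD and 11 input. Per the labels' protocols, DNA sheared to about 300 bp was captured from 500 ng, and the fractions eluted at 600 and 800 mM salt were sequenced, which favours densely methylated fragments. The build was CanFam3.1 per the submitters' processing notes; the aligner, the peak caller, the filters and how 2 libraries became 1 list are not given in the sources used here. The signal value of each peak, deposited by the authors in narrow-peak format, was read as a fold ratio, and its control is not stated. The −log10 p-value of each peak was used as deposited by the authors. Folds step, so that 99.4% of colon-only regions share their exact fold with another colon peak.

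Peaks of the 38 autosomes that overlap or touch were merged into union regions. Regions and lists were chosen with earlier results of these data known. Named are the 10 regions of each class with the most extreme value and the 5 largest clusters; windows and widest regions were chosen after the data were seen. No samples were left out. Gene starts and gene lists, planned at first, were not analysed here, because no annotation of this build was used. Intervals are 95% Wilson intervals and cover counting error only. Alternatives were peak threshold, list size, presence, merging, scaling, reference and the lists compared. The functions were tested on simulated lists. Python 3.11.15, numpy 2.4.6, pandas 2.3.3, scipy 1.17.1 and matplotlib 3.10.9 were used.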

Additional observations from a re-analysis of the deposited data

Results flagged for a closer look

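Chromosome X was outside the comparison. Its 21367 union regions included 30 colon-only regions, or 0.140% (95% Wilson interval from 0.0984%, its upper bound below the autosomal share), against 0.279% on the autosomes. They included 278 colon-absent regions, or 1.30% (1.16% to 1.46%), against 0.699% on the autosomes. Both were looked at because they lie in data not used for the report. The colon libraries and their input are labelled female, and the MBD libraries of jj8, used for 7 other tissues, are labelled male. The part of sex in these values was not tested.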

How the results depend on the processing

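Colon-only and colon-absent regions, 1256 and 3149, were 2120 and 1366 with equal numbers of peaks per list. They were 745 and 907 with the 50% of each list of highest fold, 2654 and 7363 in the 6 tissues whose shortest peak is below 200 bases, and 2050 and 6434 among the 7 lists with the same input animal. Fewer lists make both classes larger by construction. Equal lists had the 251352 peaks of colon, so colon kept all its peaks and only the other lists lost their peaks of lowest fold. That setting favours colon-only over colon-absent regions by construction. For the other settings the cause was not tested. Lower and higher regions, 1950 and 187, were 251 and 7 with the 50% of highest fold, 765 and 329 with equal lists, 1251 and 88 where peaks had to cover 50% of the region, and 5963 and 624 with the −log10 p-value in place of the fold. Higher regions alone moved to 877 and 379 in the 6 and 7 lists and to 85 with folds mapped to common quantiles. The last 5 Mb of each chromosome held 10.5% of colon-only and 9.62% of colon-absent regions, and 13.0% of all regions. With the 50% of highest fold the last 10% of the chromosomes held 16.9% of colon-absent regions. Leaving out each of the other tissues in turn gave 1292 to 1600 colon-only, 3417 to 4135 colon-absent, 1936 to 2350 lower and 189 to 311 higher regions, with 311, 308 and 300 without lung, mammary gland and spleen. Where an alternative gave a value, no log2 ratio of a named shared region changed sign. With the 50% of highest fold 1 of the 20 such regions had a value, and windows were recomputed under that setting alone, not all of them. With the 50% of highest fold the low 100-kb windows on chromosomes 20 and 30 (from 17800001 and 11900001) turned from −2.46 and −2.24 to 0.11 and 0.20. Orders among named regions and windows also depended on the setting: the lower region on chromosome 5 passed that on chromosome 31 with −log10 p-values (−3.49 against −3.34), and the higher region on chromosome 3 passed that on chromosome 33 (2.29 against 1.13). Orders of classes that turned were that of colon-only against colon-absent regions with equal lists and that of colon-absent against all regions (16.9% against 16.4%) in the last 10% of the chromosomes. Of the 10 regions named per class, 1 colon-absent, 0 lower and 1 higher were still in their class with the 50% of highest fold. At 50% of the region covered, 6 colon-absent, 3 lower and 4 higher ones were, and with equal lists 3 higher ones.

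The alternatives for gene starts were not run. No paired analysis was possible because each tissue has 1 list. Depth is unknown, and a missing peak cannot be told apart from one below the threshold of its list.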

Other observations

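Colon shared regions with single other tissues unevenly. Of the 45462 regions with peaks in exactly 2 tissues, 1549 included colon. Liver was the partner in 328 of these (21.2% of those of colon and 5.25% of the 6250 of liver), spleen in 279 (18.0% and 6.27% of the 4451 of spleen) and stomach in 246 (15.9% and 13.1% of the 1873 of stomach). Pancreas was the partner in 35, or 3.19% of its own 1096. As a share of the partner's regions, stomach was thus the highest, followed by spleen and mammary gland (5.60%). Ovary and cerebellum, with 26979 and 24531 such regions, shared 0.630% and 0.591% of them with colon.

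Of the regions lacking a peak in exactly 2 tissues, 5638 lacked one in colon. The other tissue was spleen in 986 (17.5%), pancreas in 842 (14.9%), lung in 791 (14.0%) and mammary gland in 631 (11.2%). As a share of the regions that the other tissue lacked, stomach (18.7%), spleen (18.6%) and mammary gland (16.0%) were highest and ovary (6.84%) lowest. The MBD animals 679 and jj82 were common to colon and stomach, and the input animal jj8 to colon, stomach, spleen, liver, lung, cerebrum and cerebellum. The last 2 had low shares by both counts, 0.716% and 0.591% of their regions of 2 tissues and 7.28% and 7.48% of the regions they lacked with 1 other. The part of these animals in the shared regions was not tested.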
